A study of Mus musculus with 4 samples.

Results

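The 37 genes described here encode the kinases that signal DNA damage and the enzymes that repair it: kinases and an adaptor of damage signalling, the MRN complex, homologous recombination, the Fanconi anaemia pathway, non-homologous end joining, base excision and single-strand break repair, mismatch repair, nucleotide excision repair, lesion bypass and direct reversal. They were taken by gene name from the array annotation, with every non-control probe of each gene. The array held 48 probes for them, among 39429 probes for 30175 genes in all. Of the 37 genes, 30 had at least 1 tested probe (35 probes), among 16186 tested genes. A probe was tested if its signal was well above background, by the mark of the scanner software, on at least 3 of the 4 arrays in 1 genotype.

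Total liver RNA came from 4 control mice and 4 mice in which NIPP1 was conditionally knocked out in liver, all male, 2 months old, untreated and of a mixed strain. NIPP1, the product of Ppp1r8, binds protein phosphatase 1 in the nucleus and regulates it. The labels name neither the line that drives the deletion nor the deleted part of the gene, and give no genotype of the controls beyond the word control. Each of the 4 two-colour arrays, all on 1 slide, carried RNA of 1 knockout and 1 control mouse. Knockout RNA was in Cy3 on replicates 1 and 2 and in Cy5 on replicates 3 and 4, so each dye orientation held different mice. Values are log2 knockout over control, above 0 where the knockout signal was higher. The standard error (SE) is that of a limma fit with a dye term, which leaves out the difference between the orientations, and the SD is that of the 4 arrays.

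DNA damage is sensed at breaks by the MRN complex and at stretches of single-stranded DNA, which activate the kinases ATM and ATR. Double-strand breaks are rejoined by end joining or copied from the sister chromatid by homologous recombination, the latter mainly in dividing cells. Adult hepatocytes are mostly out of the cell cycle and handle oxidised bases, alkylated bases and bulky adducts through base excision, direct reversal and nucleotide excision.

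The measurements are those of 60-base probes, and probes of 5 genes described below are printed here. For each, 30 bases of the probe are shown 5′ to 3′ as the array file gives them, to show what stretch of transcript was measured. Capitals mark a polyadenylation hexamer (AATAAA or ATTAAA, searched on the probe strand) or a TG repeat. Positions are on mm9. The exons and UTRs there are not analysed here. The Mgmt, Xrcc1 and Ercc2 probes lie on chromosome 7 at chr7:144319790-144319849, chr7:25358268-25358327 and chr7:19980982-19981041, all on the plus strand. The brighter and dimmer Rad50 probes lie at chr11:53463096-53463155 and chr11:53506211-53506270, and the Rad51c probe at chr11:87190997-87191056, all on the minus strand.
Mgmt: cggatgtgtggtggcaccactatATTAAAa
Xrcc1: tgtaatgagaagcagaagttactcccccat
Ercc2: accatgacacAATAAAatctgataggactt
Rad50, brighter probe: cgtcaatcaaatgcatactgagaatagatc
Rad50, dimmer probe: aagagaagctaaaactgccagccagctctt
Rad51c: TGTGTGTGTGTGTGTGgtggtggtggtgtt
A polyadenylation hexamer was present in 8 of the 35 tested probes of these genes and in 19.0% of all 20840 tested probes. A TG repeat of at least 6 units was present in 1 of the 35, that of Rad51c, and in 0.499% of all tested probes.

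Ppp1r8, the targeted gene, had less knockout than control signal on each array, at -0.60, -0.74, -0.74 and -0.63 on replicates 1 to 4 (mean -0.68 ± 0.07 SD, n = 4; limma adjusted p 0.0519). Its processed signal was 43.7 to 56.1 in the knockout mice and 120.0 to 134 in the controls. The offset added to every signal in processing shrinks the log2 ratio of a dim probe. The mean of -0.68 is thus smaller in size than the log2 ratio of these processed signals. The second tested Ppp1r8 probe was at -0.65 ± 0.08 (SD, n = 4; limma adjusted p 0.0519), also lower in the knockout on each array. Its processed signals were 56.4 to 65.0 in the knockout mice and 134 to 152 in the controls. Whether either probe lies in the deleted part is not known here. In each array and dye, 52.7% to 56.3% of spots were well above background, and none was saturated. Across all tested probes, the log2 ratios of pairs of arrays correlated between -0.25 (replicates 1 and 4) and 0.53 (replicates 3 and 4). The 7 hepatocyte markers (Alb, Ttr and others) were well above background in all 8 mice. The number of arrays limits the precision.

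Of the 30 tested repair genes, Mgmt stood highest in the knockout, at a log2 ratio of 0.61, and Ercc2 and Xrcc1 lowest, at -0.44 and -0.31. On the processed signals Atm, a dim gene, was at -0.39 and lay below Xrcc1 at -0.36. No repair gene passed a limma adjusted p of 0.05, a threshold that 31 of 16186 genes passed (0.192%). Of these, 21 were higher (0.13%) and 10 lower (0.0618%), and with median centring in place of loess the split was 212 to 55. At an adjusted p under 0.1, used for description, 3 of the 30 (10%) were counted, against 6.67% of all tested genes. That count of 3 was 1 without replicate 1 and 0 without replicate 2, 3 or 4. Mgmt was higher, as were 4.07% of all tested genes, and Xrcc1 and Ercc2 were lower, as were 2.6%. At an unadjusted p under 0.05 the count was 8 of 30 (26.7%), against 23.1% of all tested genes: Mgmt and Brca2 above 0 (12.8% of all tested genes) and Xrcc1, Ercc2, Atr, Rad50, Ddb2 and Xpc below (10.3%). The median of the 30 log2 ratios was 0.05, and that of all tested genes 0.00. The median absolute log2 ratio was 0.15, against 0.09 over all tested genes, while the upper 10% of absolute ratios began at 0.316 and 0.318. Of the 30, 19 lay above 0 and 11 below. The medians of the 30 on replicates 1 to 4 were 0.05, -0.05, 0.04 and 0.01.

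**Figure D1:**
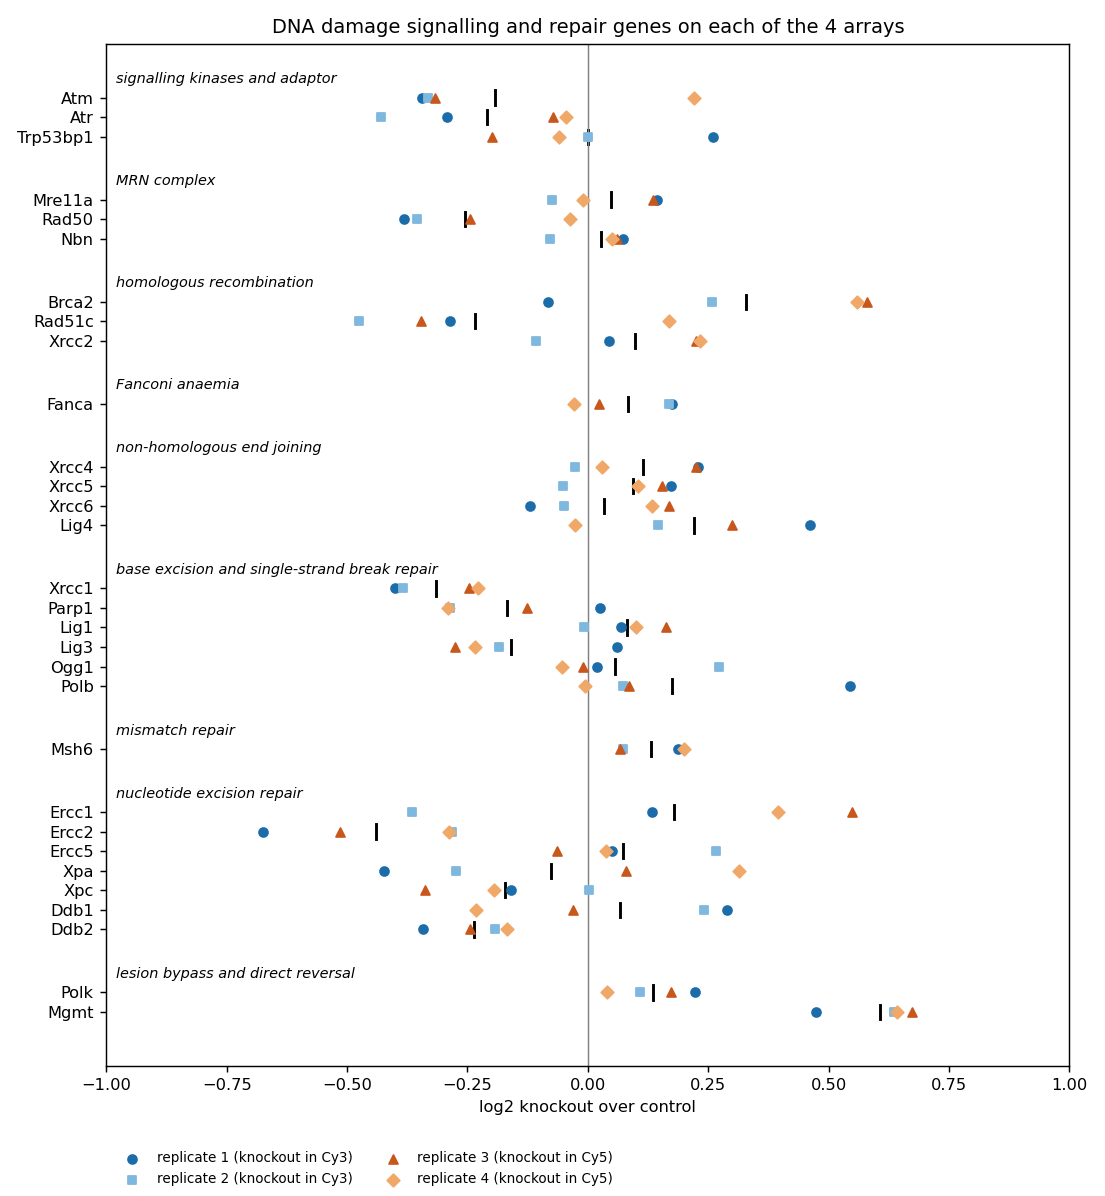
Log2 knockout over control (x axis) of the 30 tested genes, each by its brightest tested probe, ordered by pathway. Symbols are the 4 arrays (blue, knockout in Cy3; orange, knockout in Cy5) and black bars the means; Mgmt is the one gene with all 4 arrays above 0.4, and Ercc2 and Xrcc1 have all 4 below -0.2.

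Mgmt, a methyltransferase that removes alkyl groups from guanine by taking them onto itself, had processed signals of 7735, 6703, 9092 and 6702 in the knockout mice of replicates 1 to 4. The control mice of the same arrays had 5586, 4253, 5740 and 4294. All 4 knockout mice were above all 4 controls, a separation shown by 4.57% of all tested genes. The log2 ratios were 0.47, 0.64, 0.67 and 0.64, with a mean of 0.61 ± 0.09 (SD, n = 4; SE 0.05; 95% interval of the fit 0.46 to 0.75), a ratio of 1.52. The limma adjusted p was 0.0519. Mgmt passed 0.05 under 7 of 15 other settings, and without replicate 2, 3 or 4 its adjusted p was 0.145 to 0.221. Polk, a DNA polymerase that copies past damaged bases, also lay above 0 on all 4 arrays, at 0.04 to 0.22 (mean 0.14 ± 0.08 SD, n = 4; limma adjusted p 0.234). Its signals in knockout and control mice overlapped.

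Xrcc1, the scaffold that gathers the enzymes of single-strand break repair, had processed signals of 1149, 1082, 1240 and 1132 in the knockout mice and of 1521, 1432, 1537 and 1412 in the controls. Every knockout mouse was below every control, as in 4.1% of all tested genes. The log2 ratios of -0.40, -0.38, -0.25 and -0.23 gave a mean of -0.31 ± 0.09 (SD, n = 4; SE 0.04; 95% interval of the fit -0.44 to -0.19; limma adjusted p 0.0645). Lig3, the ligase that works with Xrcc1, was at -0.16 ± 0.15 (SD, n = 4; limma adjusted p 0.230), above 0 on replicate 1 and below 0 on the other 3 arrays. Parp1, which marks strand breaks with poly(ADP-ribose), was at -0.17 ± 0.15 (SD, n = 4; limma adjusted p 0.270), also above 0 on replicate 1 alone. The polymerase Polb was at 0.17, the replicative ligase Lig1 at 0.08 and the glycosylase for oxidised guanine, Ogg1, at 0.06. The adjusted p of those 3 ran from 0.340 to 0.631. Of the 6 genes of base excision and single-strand break repair, 3 were thus above 0 and 3 below, and Xrcc1 was the one with the same sign on all 4 arrays.

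Ercc2, a helicase of the transcription factor TFIIH that opens DNA around a lesion, had processed signals of 414, 548, 478 and 571 in the knockout mice and of 699, 671, 754 and 748 in the controls. The groups did not overlap, with the knockout lower, as in 4.1% of all tested genes. Its log2 ratios were -0.67, -0.28, -0.51 and -0.29, with a mean of -0.44 ± 0.19 (SD, n = 4; SE 0.09; 95% interval of the fit -0.68 to -0.20; limma adjusted p 0.0979). Ddb2, a damage sensor for ultraviolet lesions, was below 0 on each array, at -0.34, -0.19, -0.24 and -0.17 (mean -0.24 ± 0.08 SD, n = 4; limma adjusted p 0.109). Processed signals of Ddb2 were 152, 161, 185 and 148 in knockout and 218, 185, 237 and 182 in control mice. Each knockout mouse was below the control of its own array, but the groups overlapped.

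Nucleotide excision repair held 7 tested genes, 3 above 0 and 4 below. Xpc, the other main sensor of distorted DNA, was at -0.17 ± 0.14 (SD, n = 4; limma adjusted p 0.189). Ercc1, a subunit of the nuclease that cuts on the 5′ side of a lesion, gave 0.13, -0.37, 0.55 and 0.40, with a limma adjusted p of 0.356. Its probe ends 45393 bases from the start of the Ercc2 probe on chromosome 7. These neighbours had means of opposite sign. Ercc5, the nuclease of the 3′ side, was at 0.07 (adjusted p 0.528). Xpa, a scaffold of the incision complex, gave -0.42, -0.27, 0.08 and 0.31 on the 4 arrays. Ddb1, the partner of Ddb2 in a ubiquitin ligase, had the opposite order, at 0.29, 0.24, -0.03 and -0.23. The means of Xpa and Ddb1 over the 4 arrays were -0.08 and 0.07, with adjusted p of 0.536 and 0.533.

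**Figure D2:**
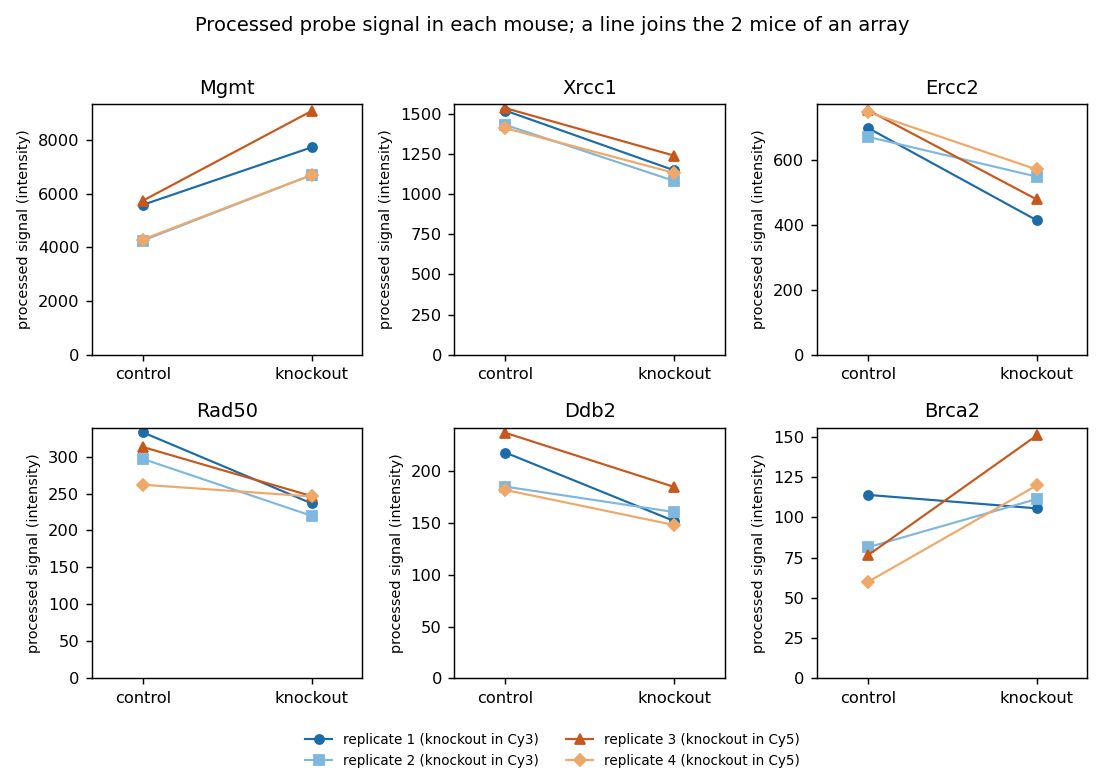
Processed probe signal (y axis, linear intensity from 0, a scale of its own in each panel) of 6 genes in the control and knockout mouse of each array, joined by a line. Each gene is shown by its brightest tested probe. For Mgmt, Xrcc1, Ercc2 and Rad50 the 4 knockout and 4 control mice do not overlap. For Ddb2 and Brca2 they do, as on the dimmer Rad50 probe, which is not shown.

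Among the damage kinases, Atr responds to single-stranded DNA at stalled forks. Its brighter probe gave -0.29, -0.43, -0.07 and -0.05 (mean -0.21 ± 0.18 SD, n = 4; SE 0.05; limma adjusted p 0.120). The processed signals were 597 to 693 in knockout and 678 to 841 in control mice, and overlapped. Atm, the kinase that responds to double-strand breaks, was at -0.19 ± 0.28 (SD, n = 4; adjusted p 0.334), and Trp53bp1, an adaptor at breaks that favours end joining, was at 0.00 ± 0.19 (SD, n = 4; adjusted p 0.998). The kinases downstream of Atr and Atm, Chek1 and Chek2, were not well above background in any of the 8 mice.

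The MRN complex consists of a nuclease, an ATPase and an adaptor. Rad50, the ATPase, gave -0.38, -0.35, -0.24 and -0.04 on its brighter probe (mean -0.25 ± 0.16 SD, n = 4; SE 0.06; limma adjusted p 0.109). Its processed signals on that probe were 237, 220, 246 and 246 in the knockout mice and 333, 297, 313 and 262 in the controls. Every knockout mouse was below every control there, as in 4.1% of all tested genes. On the dimmer Rad50 probe the groups overlapped and the mean was 0.06. The nuclease Mre11a was at 0.05 ± 0.11 and the adaptor Nbn at 0.03 ± 0.07 (SD, n = 4 each), with adjusted p of 0.685 and 0.794.

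In homologous recombination, Brca2, a scaffold that helps build the recombination filament on DNA, gave -0.08, 0.26, 0.58 and 0.56 (mean 0.33 ± 0.31 SD, n = 4; SE 0.07; limma adjusted p 0.108). Its processed signals were 106, 111, 151 and 120 in knockout and 114, 81.3, 76.4 and 59.8 in control mice. The knockout mouse was the lower one on replicate 1 alone, and the groups overlapped. Xrcc2, which acts in the same family as Rad51c, was at 0.10 ± 0.16 (SD, n = 4; adjusted p 0.332). The Rad51c value, -0.29, -0.48, -0.35 and 0.17 on the 4 arrays (adjusted p 0.269), comes from the probe that starts with the TG repeat shown above. Its processed signals were 27871 to 44163 in knockout and 37908 to 53262 in control mice, and overlapped. This made it the brightest of the tested repair gene probes. What share of that signal comes from Rad51c transcripts was not tested. Fanca, of the Fanconi core complex that acts on crosslinks between strands, gave 0.18, 0.17, 0.02 and -0.03 (mean 0.08 ± 0.10 SD, n = 4; limma adjusted p 0.345). On the processed signals Brca2 was at 0.58, Xrcc2 at 0.28 and Fanca at 0.23.

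All 4 genes of end joining lay above 0, as did 8035 of the 16186 tested genes. Of 9 other end joining genes, 4 lay above 0 and 5 below, with a median of -0.09. Lig4, the ligase that seals the break, gave 0.46, 0.15, 0.30 and -0.03 (mean 0.22 ± 0.21 SD, n = 4; SE 0.09; limma adjusted p 0.241). Its partner Xrcc4 was at 0.11, and Xrcc5 and Xrcc6, the Ku subunits that bind the broken ends, were at 0.09 and 0.03. The adjusted p of those 3 ran from 0.399 to 0.714, and none had the same sign on all 4 arrays. In mismatch repair, Msh6, a subunit of the main mismatch sensor, gave 0.19, 0.07, 0.07 and 0.20 (mean 0.13 ± 0.07 SD, n = 4; SE 0.05; limma adjusted p 0.244). Its processed signals were 1145 to 1377 in knockout and 1032 to 1186 in control mice, and overlapped.

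The 7 genes without a tested probe were Brca1, Chek1, Chek2, Exo1, Fancd2, Fanci and Rad54l. None of their 8 probes was well above background in any mouse, with processed signals of 3.35 to 22.3, so no ratio is given for them. They include the ubiquitinated pair of the Fanconi pathway, Fancd2 and Fanci, the nuclease Exo1, and Rad54l, a motor protein of recombination. In 8 of the 30 tested genes (26.7%) the arrays shared 1 sign, against 24.2% of all genes. Mgmt, Msh6 and Polk were above 0 throughout, as were 13.3% of all genes, and Atr, Rad50, Xrcc1, Ercc2 and Ddb2 below, as were 10.9%. Groups did not overlap for 4 of 30 (13.3%, against 8.67% of all tested genes).

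The dye orientations, which are also separate sets of mice, were compared next. Trp53bp1, Xrcc6, Ogg1, Xpa and Ddb1 had one sign on replicates 1 and 2 and the other sign on replicates 3 and 4, that is 5 of 30 (16.7%), against 24.3% of all tested genes. Xpa was at -0.35 in the first orientation and at 0.20 in the second. At an unadjusted p under 0.05 the dye term was counted for 5 of the 30 (Atr, Brca2, Ercc1, Xpa and Ddb1), against 22.7% of all tested genes. At an adjusted p under 0.05 it was counted for 0 of the 30 and 0% of all tested genes by limma, and the lowest adjusted p among the 30 was 0.148. Dye and mouse cannot be told apart in these differences. Mgmt was at 0.56 and 0.66 in the 2 orientations, Xrcc1 at -0.39 and -0.24, and Ercc2 at -0.48 and -0.40.

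**Figure D3:**
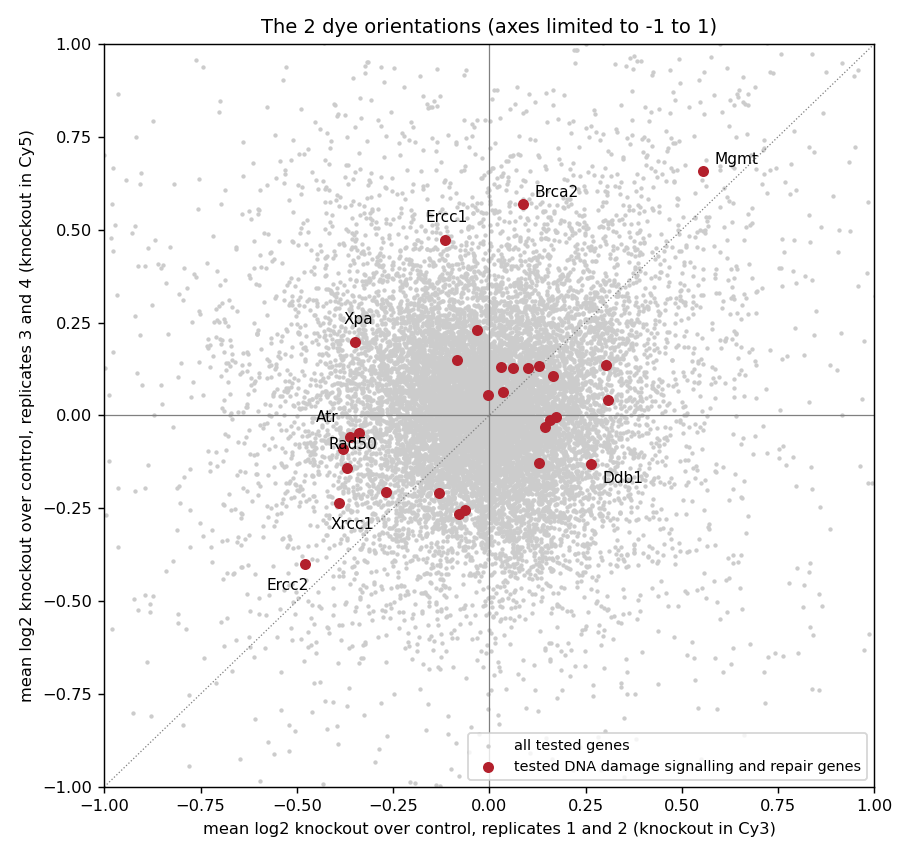
Mean log2 knockout over control on replicates 1 and 2 (x axis) against that on replicates 3 and 4 (y axis), for the 30 tested repair genes (red) and all 16186 tested genes (grey); 408 genes lie outside the axes. Mgmt lies at 0.56 and 0.66 near the dotted line of equal values, while Xpa and Ercc1 lie above 0 on the y axis and below 0 on the x axis.

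Atm, Atr, Rad50, Lig3 and Xpa each had 2 tested probes, so that separate stretches of their transcripts could be compared. For Rad50 the dimmer probe gave 0.11, 0.00, -0.03 and 0.15 (mean 0.06 ± 0.08 SD, n = 4; limma adjusted p 0.594), against -0.25 for the brighter probe. The sequences of both stand above. The processed signals of the dimmer Rad50 probe were 40.4 to 59.9 in knockout and 32.8 to 68.5 in control mice, which overlapped. For Atr the dimmer probe, annotated to another transcript entry than the brighter one, was well above background in 3 knockout mice and 1 control mouse. It was thus tested through its knockout signals alone, which favours a mean above 0, and its mean of 0.05 is not set against the -0.21 of the brighter probe. For Atm, Lig3 and Xpa both probes had means below 0, at -0.19 and -0.10, -0.16 and -0.09, and -0.08 and -0.05. The dimmer Xpa probe gave -0.28, -0.12, -0.03 and 0.22. An offset of 50 added to every signal pulls the log2 ratio of a dim probe toward 0. On the processed signals, without that offset, the dimmer Rad50 probe was at 0.09 and the brighter at -0.34. The brighter and dimmer probes were there at -0.39 and -0.40 for Atm, -0.22 and -0.21 for Lig3, and -0.07 and -0.09 for Xpa.

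**Figure D4:**
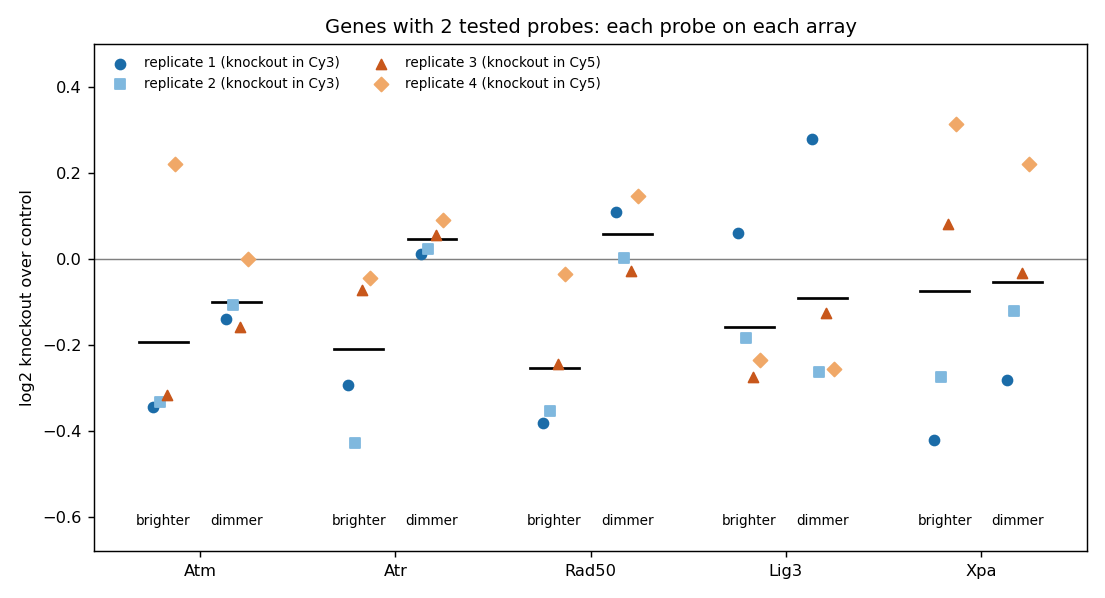
Log2 knockout over control (y axis) of both tested probes of Atm, Atr, Rad50, Lig3 and Xpa on the 4 arrays, with black bars for the means. The probes of Rad50 differ in the sign of their mean (-0.25 and 0.06); the dimmer Atr probe was well above background in 1 control mouse alone. Both probes of Xpa have replicate 1 lowest and replicate 4 highest.

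The rest of the repair machinery was read from a list of other repair genes, 103 of them on the array and 95 tested. At an adjusted p under 0.1, 8 were higher and 2 lower in the knockout, and none passed 0.05 by limma, while at an unadjusted p under 0.05 the counts were 13 and 10. Over all tested genes, 4.07% were higher and 2.6% lower at the first of these thresholds, and 12.8% and 10.3% at the last. The median over the 95 was 0.01. In recombination, Brip1, a helicase that binds Brca1, was at 0.55, Xrcc3, of the family of Rad51c, at 0.47, and Rpa1, which coats single-stranded DNA, at 0.29, each above 0 on all 4 arrays. Rad51l1, of the same family, had a mean of -0.57 but gave -1.61, -1.499, 0.57 and 0.26 on the 4 arrays. Fancb of the Fanconi core was at 0.31, with 0.24 to 0.41 on single arrays. Wee1, a kinase that holds back mitosis, was at 0.42.

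Among the other genes of nucleotide excision, 3 of 16 were at an adjusted p under 0.1, all higher, against 4.07% of all tested genes. Ercc8, which acts where transcription stalls, was at 0.49, Rad23b, the partner of Xpc, at 0.36, and Cul4b, a scaffold of the ligase that holds Ddb1, at 0.25. Their adjusted p values were 0.0544, 0.0851 and 0.0917. Among the genes of bypass and reversal, Alkbh2, which removes alkyl groups from DNA bases by oxidation, was the one lower gene. It gave -0.15, -0.37, -0.50 and -0.52 (mean -0.38 ± 0.17 SD, n = 4; limma adjusted p 0.0696). Mgmt and Alkbh2, both enzymes of direct reversal, thus had means of opposite sign. No gene of the base excision, end joining or mismatch repair lists was at an adjusted p under 0.1.

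Fen1 and Pcna, which work at replication forks and in base excision, were at 0.10 and 0.07, with adjusted p of 0.734 and 0.638. The kinase Prkdc of end joining was at -0.20 (adjusted p 0.318). Trp53, the transcription factor p53, was at -0.12 and its ubiquitin ligase Mdm2 at 0.00 (adjusted p 0.370 and 0.988). The S and M phase gene Top2a had no tested probe.

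A list of 22 genes named as p53 targets was also read, of which 18 were tested. Whether p53 induces each of them in mouse liver was not tested. Of the 18, 2 were higher at an adjusted p under 0.1 (4.07% of all tested genes) and none lower (2.6%), with a median of 0.11. At an unadjusted p under 0.05 the list had 6 higher and 2 lower, against 12.8% and 10.3% of all tested genes. The 2 were Aen, a nuclease, and Ccng1, a cyclin, at 0.70 and 0.50, both above 0 on all 4 arrays. Polk, Ddb2 and Xpc are members of that list too, and as given above Polk had a mean above 0 and the other 2 below. Cdkn1a, an inhibitor of cell cycle kinases, was at 0.70 ± 0.61 (SD, n = 4; limma adjusted p 0.146). Of 32 genes of S and M phase, in which recombination and Fanconi genes are used, 23 were tested. Of these, 1 was at an adjusted p under 0.1, against 6.67% of all tested genes. It was Rrm1, a subunit of ribonucleotide reductase, at 0.23. The median of the 23 was 0.04, and Mki67, the usual marker of dividing cells, was at -0.08 ± 0.50 (SD, n = 4; adjusted p 0.783).

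Bulk liver holds several cell types, and fewer cells of a type and less RNA per cell cannot be told apart. The 6 biliary markers had a median of 0.21, with 5 above 0. Krt19 and Spp1 were at 0.64 and 0.37 (limma adjusted p 0.0582 and 0.0694), and the lowest of the 6 was at -0.21. Of the 6, 4 were well above background in all 8 mice. The summed processed signal of the 6 was 787 to 959 in knockout and 491 to 780 in control mice. The 8 markers of pancreatic acinar cells had medians of 3.57, -2.20, -0.10 and -0.82 on replicates 1 to 4, with sums of 4070 to 32294 in knockout and 4993 to 8240 in control mice. The sums of the hepatocyte, macrophage, endothelial, stellate, lymphocyte and erythroid lists overlapped between the genotypes. Of their tested markers, 4 of 7 hepatocyte, 6 of 7 macrophage and 7 of 7 endothelial genes had means below 0. The same held for 3 of 7 stellate, 4 of 4 lymphocyte and 4 of 4 erythroid genes. At a limma adjusted p under 0.1 none of these markers was lower, and 1, the hepatocyte marker Alb, was higher, at 0.44. Alb lay below 0 on replicates 1 and 2 and above 0 on replicates 3 and 4. The dye term of the fit leaves out that difference. No hepatocyte marker had the same sign on all 4 arrays. The hepatocyte medians on replicates 1 to 4 were -0.20, -0.23, 0.00 and 0.46. Cd3g and Cd8a were not well above background in any mouse. What part these cells have in the repair gene values was not tested. Mgmt was at 0.65 without replicate 1 and at 0.57 without replicate 2.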

How the data were processed

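Total liver RNA of 8 mice was measured on 4 two-colour arrays, which per the labels' protocols carried amplified cRNA. Per the file headers the deposited intensities came from Agilent Feature Extraction 10.7.3.1: mean spot and median local background intensities, and processed signals, from which the software had subtracted background and removed spatial trends before scaling the dyes. The authors' deposited values of log2 ratios matched log2 knockout over control of the processed signals within 0.0001 for all 43020 spots. Background was corrected with normexp (offset 50). Its parameters were fitted without spots marked for non-uniform background in either dye or over 20 units below their local background. Fitted on every spot it failed on replicate 1 (background mean -273 in Cy3, against 4.07 without those spots). Loess followed, with control spots at weight 0, then removal of control and outlier spots. The fit used limma 3.58.1 under R 4.3.3, 1 ratio per array, a dye term, and Benjamini-Hochberg adjustment over all 20840 tested probes (two-sided). The tested probe of highest average intensity stood for a gene. The scripts were tested on simulated data. Other tools were data.table version 1.17.8, statmod 1.5.0 and matplotlib 3.10.9.

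The members and lists were chosen with earlier results of these data known. Single array values are given for members at an adjusted p under 0.1, of one sign on all arrays with an absolute mean of at least 0.2, with probes of opposite sign differing by at least 0.3, with opposite signs in the dye orientations and a difference of at least 0.5, or with the largest absolute mean of their pathway. Up to 4 genes of each other list at an adjusted p under 0.1 are named, plus a fixed set. Single array values of other members and of Alb, and the means of Krt19 and Spp1, were added after their values were seen. Positions of probes were read from the deposited array files. Some listed genes are not reported here.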

Additional observations from a re-analysis of the deposited data

Results flagged for a closer look

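In 3 of 31 sets of 4 arrays tested, 1 array stood apart from the other 3 by more than 0.829 of the whole range, where chance marks about 1 set in 20. Atm on its brighter probe, at -0.34, -0.33 and -0.32 on replicates 1 to 3, was at 0.22 on replicate 4. The processed signal there was 98.8 in the knockout and 69.3 in the control mouse. The dimmer Atm probe gave -0.14, -0.11 and -0.16 on replicates 1 to 3 and -0.00016 on replicate 4. Its processed signals on replicate 4 were 25.8 in the knockout and 26.8 in the control mouse, so the knockout was not the higher one. Nbn was at -0.079 on replicate 2, against 0.05 to 0.07 on the other 3 arrays. Polb was at 0.54 on replicate 1, against -0.01 to 0.09 on the others.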

How the results depend on the processing

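Across 15 other settings, the means of the 11 repair genes chosen by the stated rule kept their sign. The median over all tested repair genes stayed between 0.03 and 0.08. Several settings could not change the sign of the 11. Without the dye term or the filter, with all 8 channels, trend and robust or separate channels, their means stayed the same by construction. The choice of probe could not alter genes with 1 tested probe. Some of the 11 were also chosen for size or a shared sign. Sizes moved for some. With the mean of all tested probes Rad50 was at -0.10 and Atr at -0.08. That Atr value takes in the dimmer probe, tested through its knockout signals alone, which favours a mean above 0. It therefore does not show how far the size of Atr depends on the setting. With processed signals Brca2 was at 0.58 and Fanca at 0.23. Fanca was at 0.05 with normexp fitted on every spot and Xpa at -0.02 with median centring. Without 1 array Xpa was at -0.02 to -0.13 and Lig4 at 0.14 without replicate 1 or 3. Of all genes, the numbers higher and lower at an adjusted p under 0.05 were 0 and 0 with normexp fitted on every spot, 0 and 0 with the mean of all probes of a gene, 5 and 3 with processed signals, 81 and 37 with no background correction, and 212 and 55 with median centring. They were 33 and 15 without the dye term, 253 and 136 with no filter, 91 and 47 with probes well above background in all 8 channels, 389 and 197 with a trend and robust fit, and 1602 and 1215 with separate channels. Leaving out any 1 array gave 0 in both directions. At an adjusted p under 0.1 the count of 1080 genes became 624 with normexp on every spot, 277 without the dye term, 1751 with trend and robust, 4269 with separate channels and 0 to 173 without 1 array. The 3 repair genes counted there became 1 without the dye term (Mgmt), 6 with trend and robust, 10 with separate channels and 0 to 1 without 1 array. At 0.05, 1 repair gene was higher with median centring, no background correction, no filter, no dye term, all 8 channels or trend and robust, Mgmt each time, and 2 with separate channels. There was 1 lower with no filter and with trend and robust (Xrcc1), and 5 with separate channels. The dye term and the left-out arrays alter the residual degrees of freedom. The cause of the other differences was not tested. The deposited value table gives the same values as the processed signals and was not fitted separately. Each ratio already pairs the knockout and control mouse of an array. Replicates were numbered in accession order, so the numbers give no further pairing.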

Other observations

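H2afx and Alb, which are outside the 37 and were chosen after their values were seen, differed in sign between the dye orientations, that is between separate sets of mice, by more than any of the 30 tested members. H2afx, the histone variant that marks breaks when phosphorylated, gave 0.80, 0.45, -0.38 and -0.96 on replicates 1 to 4, with a mean of -0.02 (limma adjusted p 0.934, and 0.134 for the dye term). Alb, the albumin gene and a hepatocyte marker, gave -0.44, -0.24, 1.204 and 1.24.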
